A study of Rattus norvegicus with 8 samples.

Results

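The rat pineal gland was compared between the age of weaning (postnatal day 20, P20) and young adulthood (P40). The comparison used 4 of the 8 libraries of a series that follows Sprague-Dawley rats from embryonic day 21 (E21) through P5 and P20 to P40. At each age 1 pool of glands was sequenced from the middle of the light phase (mid-day, zeitgeber time 7, in hours from lights on) and 1 from the middle of the dark phase (mid-night, zeitgeber time 19), under 14 h of light and 10 h of dark. The P20 mid-day pool held 13 animals, the P20 mid-night pool 10 and both P40 pools 3, so a smaller pool and an older age cannot be told apart. No treatment, genotype or sex is given in the labels used here. Of 8 sex chromosome genes listed, 0 were matched, and sex is not analysed here.

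Values are FPKM, the fragments of a transcript divided by its length in kilobases and by the mapped fragments of its library. They were analysed as log2(FPKM + 1), on which a difference of 1 is a doubling for well expressed transcripts and less than the true fold for those near 1 FPKM. Tests covered the 9960 of 16932 transcripts that reached 1 FPKM in 2 or more of the 8 libraries. The P40 libraries were the deeper ones: relative to the deepest library, depth was 0.411 and 0.590 at P20 (mid-day and mid-night) and 0.787 and 1.0 at P40. The tissue label was checked against pinealocyte genes. Tph1, which starts serotonin synthesis, lay between 1930 and 2756 FPKM in the 4 libraries, and Asmt, the last enzyme of melatonin synthesis, between 123 and 208 FPKM. In pooled whole glands, fewer cells of a type and less RNA per cell cannot be told apart.

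The pineal gland makes melatonin at night, when noradrenaline from sympathetic nerve endings raises cyclic AMP in pinealocytes and with it the enzyme Aanat. Besides pinealocytes, the gland holds glia, macrophages and microglia, vessels and a connective tissue capsule. Interferons act through receptors, Janus kinases and transcription factors such as Stat2 and Irf9, which bind promoter elements of a large gene set. That set includes RNA sensors, antiviral enzymes and GTPases, chemokines and antigen presentation genes, many of them expressed at a low level without infection.

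The difference between P20 and P40 was small beside those at the earlier ages. By limma, with age and time of day as terms over all 8 libraries, 0 of 9960 transcripts (0.0%) passed a Benjamini-Hochberg adjusted p of 0.05, and the smallest adjusted p was 0.13. At an unadjusted p under 0.05 limma gave 669 transcripts (6.72%), 489 higher at P40 (4.91%) and 180 lower (1.81%). That split was 377 to 285 after quantile normalization, 443 to 291 after median centring and 278 to 314 without the P20 mid-night library. Under the 15 other settings of the limma fit, 14 also gave 0. The exception, a pseudocount of 0.1, gave 1 transcript, a Tpm1 isoform at 2.12, 1.46, 0 and 0.0446 FPKM (P20 mid-day, P20 mid-night, P40 mid-day, P40 mid-night). Tpm1 encodes tropomyosin, has 9 annotated transcripts in the table, and its isoform values are uncertain. With a single pool behind each library, these p-values rest on the spread left after both terms, which holds any change of the night effect between ages together with the spread between pools. With a night effect for E21 and P5 and another for P20 and P40, limma gave 978 unadjusted and 0 adjusted calls. P20 and P40 share a night effect in that fit too, so a change of it between them stays in the spread.

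At mid-day 122 transcripts were at least 2-fold higher at P40 (1.22%) and 109 lower (1.09%), and at mid-night 178 (1.79%) and 41 (0.412%), with no test. At both times 29 were at least 2-fold higher (0.291%) and 11 at least 2-fold lower (0.11%). From E21 to P5, 489 were at least 2-fold higher and 213 lower at both times, and from P5 to P20, which shares the P20 libraries, 55 and 273. Day and night pairs also resembled each other less. The difference from P20 to P40 had the same direction at both times for 5533 transcripts (55.55%), and Pearson's r between both sets of differences was 0.257 across transcripts. From E21 to P5 it was 0.757. These values describe transcripts within a few libraries and are not independent replicates. Closest to the limit of 1 on the log2 scale were Myh11 (1.01) inside and Penk (0.9985) outside on the higher side, and Vsnl1 (-1.07) inside and Slc1a5 (-0.98) outside on the lower side.

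**Figure D1:**
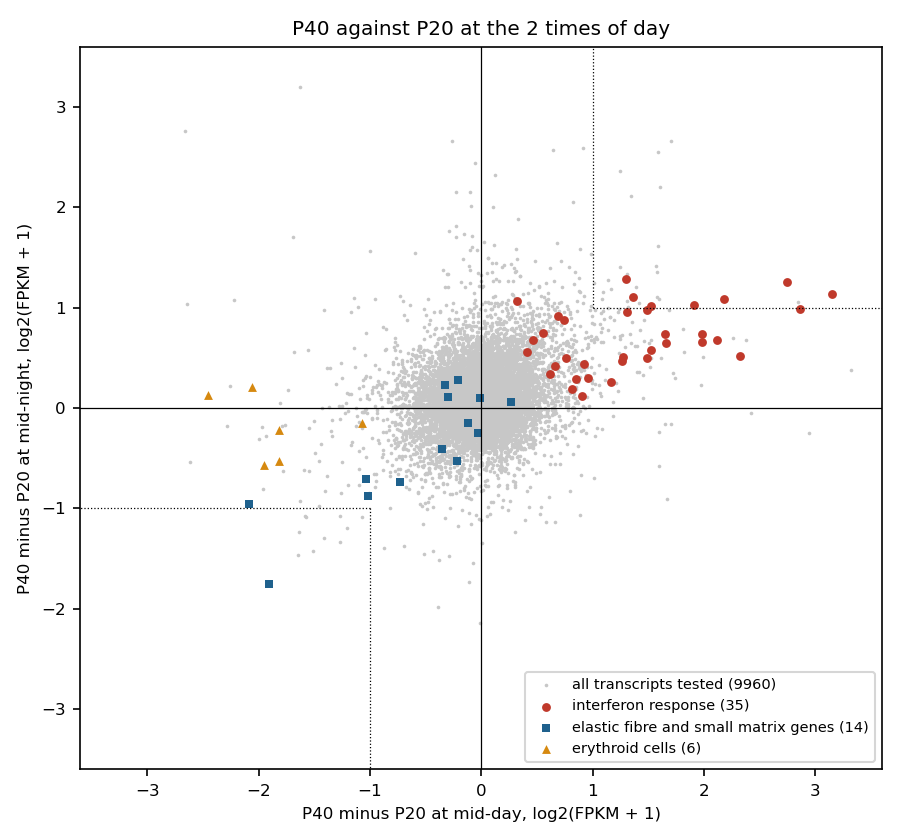
Difference P40 minus P20 at mid-day (x axis) and at mid-night (y axis) on the log2(FPKM + 1) scale, 1 point per transcript, with dotted corners at 2-fold at both times. All 35 interferon response transcripts tested are higher on both axes, the erythroid transcripts far to the left near 0 at mid-night; 1 transcript lies beyond the axes.

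The interferon response genes had the highest fitted median of all lists, 0.99. Of 43 genes listed, 38 were found and 35 tested, while Oas2 and Eif2ak2 were listed at 0 in all 8 libraries and Ifit1 in the 4 compared here. All 35 tested members were higher at P40 at both times, against 34.2% of all transcripts. Of them 17 were higher by at least 1.5-fold (1.89% of all) and 7 by at least 2-fold (0.291%). The count at 1.5-fold was 6 with a pseudocount of 5 and 24 with 0.1. In 32 members both P40 libraries lay above both P20 libraries (18.7% of all). At an unadjusted p under 0.05 limma gave 31 of the 35 as higher (4.91% of all). In the list 0 passed the adjusted threshold, the smallest adjusted p by limma being 0.132. Members could pass the filter through their P40 values alone, and 25 of the 35 passed it without the P40 libraries. The summed level of the list was 114 and 160 FPKM at P20 and 299.7 and 296.6 FPKM at P40.

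The interferon-stimulated response element was searched as GAAA, any 2 bases and GAAA again, on both strands, in the 250 bases before the gene start (RefSeq, rat build GRCr8, 1 promoter per gene). Of the 26 tested members with an entry, 17 held it (65.4%), against 902 of 27457 genes (3.29%). The gamma-activated site, TTC, any 3 bases and GAA, which reads alike on both strands, was in 10 of the 26 (38.5%) and in 7.52% of all. Such a match is a run of letters and not a measured binding site. The list was made of known interferon response genes, so high shares were likely in advance. They say nothing about P40 against P20. Members without an entry, Mx2, Usp18 and Ddx58 among them, were not searched. Of those searched, the members with the largest smaller difference of both pairs that hold the element are printed to show its place. Each is given 5′ to 3′ along the gene, with the matching bases in capitals. Where the match lies on the other strand it reads TTTC first. Oas1a and Oas1b are near-identical neighbours, and fragments shared between them may be split by the counting.
Oas1b, chr12:41395877-41395936, minus strand: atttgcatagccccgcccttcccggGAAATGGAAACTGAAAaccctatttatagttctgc
Oas1a, chr12:41330400-41330459, plus strand: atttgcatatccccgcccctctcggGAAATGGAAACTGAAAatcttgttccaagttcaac
Oasl2, chr12:47383302-47383361, minus strand: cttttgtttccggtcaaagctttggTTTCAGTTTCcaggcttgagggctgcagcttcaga
Irf7, chr1:205800058-205800117, minus strand: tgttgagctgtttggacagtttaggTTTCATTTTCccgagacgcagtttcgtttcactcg
Ifi44, chr2:243303841-243303891, minus strand: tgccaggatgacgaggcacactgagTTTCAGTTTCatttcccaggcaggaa
Igtp, chr10:42874919-42874978, plus strand: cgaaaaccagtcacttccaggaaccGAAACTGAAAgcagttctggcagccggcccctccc
In Oas1a and Oas1b 2 overlapping matches start 41 and 59 bases before the gene start, inside otherwise similar stretches, while the other 4 promoters hold 1 match each.

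Among the transcription factors of the response, Irf7, which amplifies interferon production, was at 6.25 and 10.2 FPKM at P20 (mid-day and mid-night) and 19.9 and 21.6 FPKM at P40. Irf7 lies at chr1:201456689-201459756 (build rn4, whole transcript span). Its fitted difference was 1.27 ± 0.20 (SE), with an adjusted p of 0.147 by limma, and both P40 values lay above both P20 values. Irf9, the partner of Stat2, was at 3.59, 5.37, 10.0 and 7.84 FPKM in the same order of libraries. Stat2 was at 9.25, 8.11, 12.6 and 12.4 FPKM, a smaller step in which the groups did not overlap.

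The RNA sensors differed in size. Ddx58, which encodes the sensor RIG-I, was at 1.91 and 2.75 FPKM at P20 and 9.94 and 6.66 FPKM at P40 (chr5:57597131-57645147, rn4). Its mid-day pair differed by 1.91 and its mid-night pair by 1.03. Ifih1, which encodes MDA5, was at 3.36, 5.11, 6.68 and 5.96 FPKM, so its night pair differed by 0.19 only, while Dhx58 stayed between 0.486 and 1.68 FPKM.

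Antiviral effectors held the largest steps of the list. Mx2, a dynamin-like GTPase, was at 1.10 and 9.04 FPKM at P20 and at 17.7 and 21.1 FPKM at P40 (chr11:37548650-37572716, rn4). The P20 mid-day library was far below the P20 mid-night library, so the mid-day pair differed by 3.15 and the mid-night pair by 1.14. Usp18, which removes Isg15 from proteins and dampens receptor signalling, was at 0.446, 2.62, 8.73 and 7.62 FPKM, and passed the filter only with its P40 values. Isg15 itself was at 1.02, 3.64, 9.10 and 5.64 FPKM. The oligoadenylate synthetase family senses double-stranded RNA. Oas1b was at 0.614, 0.641, 2.97 and 2.99 FPKM (chr12:36858902-36869570, rn4) and here both P20 libraries and both P40 libraries were alike. Oasl2 was at 1.36, 3.10, 9.73 and 7.71 FPKM, and Bst2, which tethers budding virus at the membrane, at 6.27, 6.36, 11.2 and 12.5 FPKM.

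Chemokine and further GTPase genes of the list were also higher. The chemokine gene Cxcl9 was at 1.71, 9.85, 18.7 and 20.5 FPKM, again lowest in the P20 mid-day library. Cxcl10 was at 0.690, 2.54, 6.35 and 4.66 FPKM. The GTPase genes Gbp2 and Igtp were at 0.900, 1.51, 4.98 and 3.18 FPKM and at 2.18, 1.64, 6.85 and 4.14 FPKM. In both, the mid-day P40 library was the highest and the P40 values lay above those of P20.

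**Figure D2:**
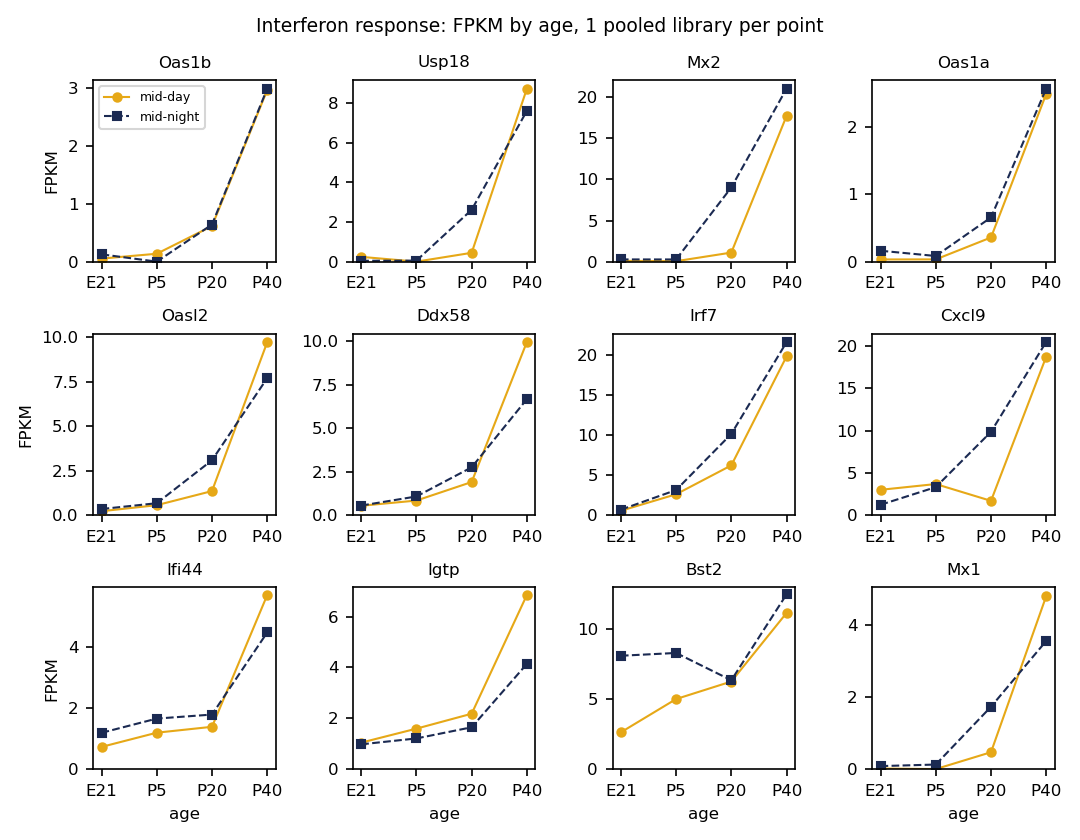
FPKM (y axis, from 0) at 4 ages (x axis) at mid-day (circles, solid) and mid-night (squares, dashed) for the 12 interferon response members with the largest smaller difference of both pairs, 1 pooled library per point. Both P40 points are the highest of each time of day; Mx2, Usp18 and Cxcl9 have a P20 mid-day point far below the P20 mid-night point.

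The interferon step was larger at mid-day, and the P20 mid-day library, the shallowest of the 4, was the lowest library for 28 of the 35 members. The list had a median difference of 1.297 from the mid-day pair and 0.67 from the mid-night pair, against -0.004 and 0.10 for all transcripts tested. From the mid-night pair alone, without the mid-day libraries, 35 of 35 were higher at P40 and 20 by at least 1.5-fold (8.12% of all transcripts). At mid-day 31 were at least 1.5-fold higher (4.73% of all). The summed level was 55.6 and 66.0 FPKM at E21 and 94.1 and 97.0 FPKM at P5.

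Interferons and their receptors, a list added after values were seen, did not show such steps. Ifnb1, Ifng and Ifna1 were listed at 0 in all 8 libraries. Of 16 genes found, 8 were tested, with 4 higher at P40 at both times and 0 lower, against 34.2% and 21.4% of all transcripts. By 1.5-fold 0 differed at both times, and the fitted median was 0.12. The receptor gene Ifnar1 was at 17.5, 9.95, 14.1 and 11.1 FPKM, and the P40 values lay within the range at P20. The kinase gene Jak1 was at 19.4, 21.9, 23.4 and 24.3 FPKM.

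Antigen presentation genes were higher at P40 by smaller amounts. Of 8 tested MHC class II presentation genes (12 found), 7 were higher at both times (34.2% of all transcripts). By limma 5 were higher at an unadjusted p under 0.05 (4.91% of all). By 1.5-fold 2 were higher (1.89% of all), and 0 under quantile normalization, median centring or a pseudocount of 5. Cd74, the invariant chain of class II, was at 10.5 and 13.2 FPKM at P20 and 19.1 and 20.7 FPKM at P40, and Ctss, the protease that trims it, at 5.10, 7.52, 11.3 and 12.7 FPKM. The class II chain genes RT1-Da and RT1-Ba were at 4.01, 5.85, 7.81 and 8.92 FPKM and at 3.38, 4.68, 5.63 and 5.92 FPKM. In these 4 genes the groups did not overlap. Of the 8 tested, 7 had both P40 values above both P20 values (18.7% of all). RT1-Db1 was at 2.22, 2.40, 3.01 and 4.67 FPKM, RT1-Bb at 2.02, 2.07, 2.19 and 4.85 FPKM and RT1-DMb at 1.47, 2.49, 2.62 and 2.69 FPKM. RT1-DMa, whose product helps load class II with peptide, was level, at 1.24, 1.68, 1.23 and 1.86 FPKM.

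Of 15 tested MHC class I presentation genes (19 found), 11 were higher at both times, against 34.2% of all transcripts. Without the P40 libraries 12 of the 15 passed the filter, and Tap1 passed only with them, which favours higher values at P40. By 1.5-fold 3 were higher (1.89% of all), and 0 with a pseudocount of 5. By limma 5 were higher at an unadjusted p under 0.05 (4.91% of all). B2m, the class I light chain, was at 103.7 and 75.6 FPKM at P20 and 150.4 and 121 FPKM at P40. Tap1, a subunit of the peptide transporter, was at 0.804, 0.924, 2.78 and 2.45 FPKM, while its partner Tap2 was at 5.84, 4.27, 5.34 and 5.69 FPKM with overlapping groups. Psmb9, an immunoproteasome subunit, was at 1.59, 2.75, 2.98 and 5.58 FPKM. Class I heavy chain genes are near-identical copies, so the 12, 7.43, 21 and 12 FPKM of RT1-A2 are uncertain.

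Complement genes were higher as well, with 12 of 13 tested higher at both times, against 34.2% of all transcripts. Without the P40 libraries 11 of the 13 passed the filter. By 1.5-fold 4 were higher (1.89% of all), and 2 with a pseudocount of 5. At an unadjusted p under 0.05 limma gave 6 higher (4.91% of all) and 1 lower (1.81%). C3, the central component, was at 0.882, 1.18, 3.01 and 3.87 FPKM, and C4b at 1.57, 1.26, 4.89 and 3.15 FPKM. Serping1, the C1 inhibitor, was at 33.4, 35.1, 62.8 and 62.5 FPKM, nearly the same within each age. Cfd was lower at P40, at 5.43, 3.56, 3.21 and 1.84 FPKM. C1qa, C1qb and C1qc stand in the microglia list too.

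Microglia and macrophage markers were higher in part. Of 19 found, 14 were tested, and 11 were higher at both times (34.2% of all transcripts). By 1.5-fold 4 were higher (C1qa, Ctss, Fcer1g, Tyrobp), against 1.89% of all. By limma 7 were higher at an unadjusted p under 0.05 (4.91% of all). The count at 1.5-fold was 2 after quantile normalization and 1 with a pseudocount of 5. Their summed level was 56.9 and 59.4 FPKM at P20 and 87.1 and 98.1 FPKM at P40. C1qa was at 7.13, 10.4, 13.7 and 22.8 FPKM and the fractalkine receptor gene Cx3cr1 at 1.19, 1.14, 2.80 and 1.85 FPKM. The general marker Aif1 was at 1.76, 1.55, 2.23 and 1.98 FPKM, a small step without overlap. The groups of Csf1r overlapped, at 11.5, 6.71, 8.50 and 11.1 FPKM. Mrc1, a marker of perivascular macrophages, was lower at both times, at 1.26, 1.51, 0.846 and 0.558 FPKM. Of 17 lymphocyte markers found, 1 was tested (Cd4, at most 1.74 FPKM), and Cd3d and Ms4a1, which define T and B cells, were listed at 0 in all 8 libraries. The lymphocyte markers summed to 2.17 and 2.78 FPKM at P20 and 2.87 and 4.09 FPKM at P40. Their part in the interferon and antigen presentation values was not tested.

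**Figure D3:**
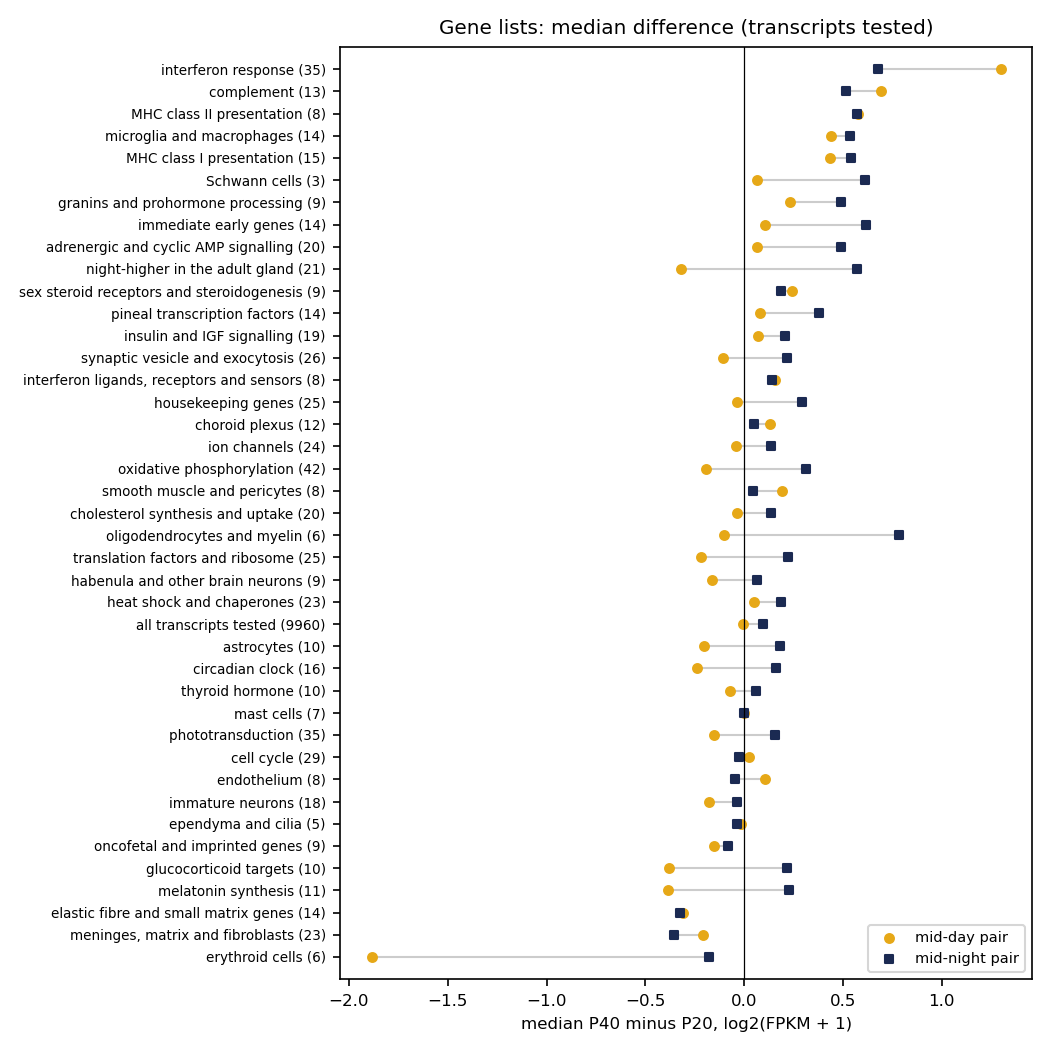
Median difference P40 minus P20 on the log2(FPKM + 1) scale (x axis) of each gene list with at least 3 transcripts tested, from the mid-day pair (circles) and the mid-night pair (squares), with the number tested in brackets. Interferon response, complement, antigen presentation and microglia lists have both medians above those of all transcripts. So do others, among them granins and prohormone processing, immediate early genes and pineal transcription factors. The erythroid list is low at mid-day, and the melatonin synthesis and night-higher lists lie on opposite sides of 0 at the 2 times.

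Several matrix genes were lower at P40 at both times. Eln, which encodes elastin, was at 17.8 and 16.1 FPKM at P20 and at 4.01 and 4.06 FPKM at P40 (chr12:23033657-23077043, rn4). Both libraries of an age were alike, and at E21 and P5 Eln was between 12.1 and 19.8 FPKM. The fitted difference was -1.83 ± 0.22 (SE), with an adjusted p of 0.13 by limma. Optc, a small leucine-rich proteoglycan, was at 43.0 and 33.6 FPKM at P20, its highest age, and at 9.39 and 16.8 FPKM at P40. Fmod, a related proteoglycan that binds collagen, was at 6.60, 6.12, 2.74 and 2.88 FPKM. Tgfbi, a secreted adhesion protein, was at 25.8, 20.9, 12.1 and 12.4 FPKM, and Nid2, a basement membrane protein, at 7.29, 6.98, 3.99 and 3.79 FPKM.

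The elastic fibre genes Loxl1 and Mfap4, picked after values were seen, did not share the step of elastin. In the list of elastic fibre and small matrix genes, added after values were seen, 14 of 16 found were tested, 9 were lower at both times and 5 of them, those named above, by 1.5-fold. Eln, Optc and Fmod entered the list as some of the lowest transcripts of this comparison, so nothing is read from its count. The crosslinking enzyme gene Loxl1 was at 12.6, 7.83, 12.5 and 8.44 FPKM and Mfap4 at 18.8, 11.3, 14.8 and 13.4 FPKM. Among 23 tested markers of meninges, matrix and fibroblasts, 15 were lower at both times (21.4% of all transcripts) and 3 higher (34.2%), and the median was -0.21 for the mid-day pair and -0.35 for the mid-night pair. Of these, 2 were lower by 1.5-fold (0.532% of all), Igfbp2 and Slc6a13. Col1a1 was at 28.0, 22.7, 21.6 and 14.5 FPKM, a smaller step than that of elastin, beside 174 FPKM in the E21 mid-day library. Dpt, which encodes the matrix protein dermatopontin, was higher, at 16.2, 15.2, 20.9 and 24.5 FPKM. Pdgfra, a receptor gene of fibroblasts and glial precursors, was level, at 13.1, 13.1, 12.9 and 13.2 FPKM. Ptgds, which makes prostaglandin D2 and marks the arachnoid, was at 15.7, 8.42, 1.72 and 5.50 FPKM.

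Igf2 and H19 were lower at P40. Igf2, the fetal growth factor, was at 21.2 and 17.0 FPKM at P20 and at 6.47 and 7.52 FPKM at P40, after 119 and 158 FPKM at E21. Igf2 has 3 transcripts in the table and their split is uncertain. H19, the RNA from the neighbouring imprinted locus, was at 2.27, 1.63, 0.362 and 0.458 FPKM, from 277 and 233 FPKM at E21. In both genes the P40 values were the lowest of all 4 ages.

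Binding proteins of these factors, which control their access to receptors, went in different directions. Igfbp3 was at 3.28 and 4.26 FPKM at P20 and at 11.9 and 15.2 FPKM at P40 (chr14:87959153-87967171, rn4), after 10.5 and 9.70 FPKM at E21. Its fitted difference was 1.60 ± 0.18 (SE), with an adjusted p of 0.13 by limma. Igfbp5 was at 9.80, 9.46, 33.8 and 19.7 FPKM. Igfbp2 was at 3.98, 3.82, 2.11 and 2.02 FPKM and Igfbp4 at 7.97, 5.62, 4.78 and 4.14 FPKM, so P20 and P40 did not overlap in any of the 4. Other listed binding protein genes are not described here. Of the 19 insulin and IGF genes tested, 7 had both P40 values above both P20 values (18.7% of all) and 3 both below (11.0%). The growth hormone receptor gene Ghr was at 2.20, 2.42, 5.23 and 4.58 FPKM. The receptor genes Igf1r (4.42, 30.7, 4.06 and 25.5 FPKM) and Igf2r (7.72, 6.75, 8.54 and 8.98 FPKM) differed less between ages, and Igf1r differed more between day and night than between ages.

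**Figure D4:**
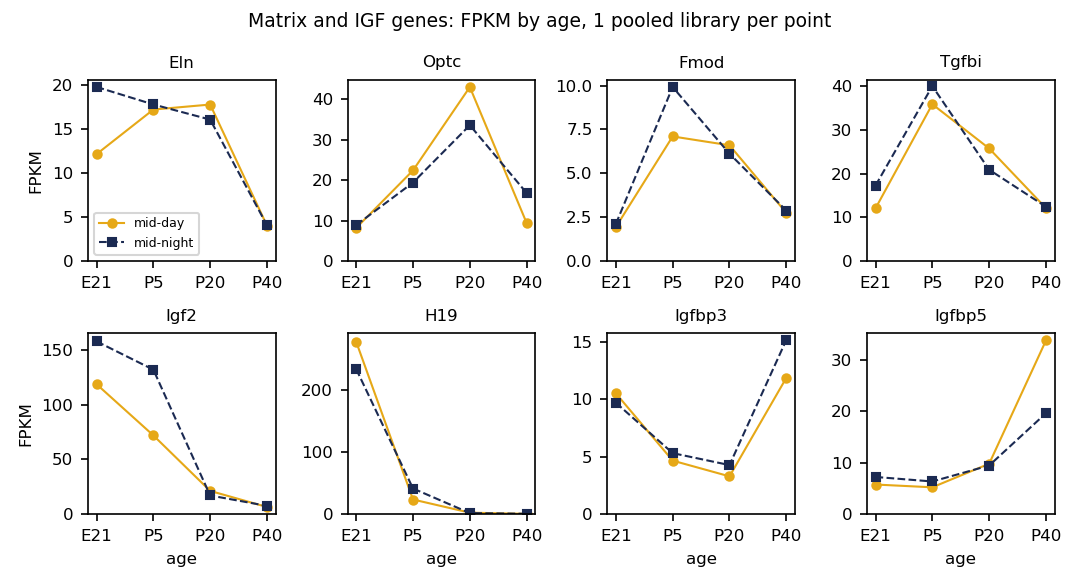
FPKM (y axis, from 0) at 4 ages (x axis) at mid-day (circles, solid) and mid-night (squares, dashed) for matrix and IGF genes, 1 pooled library per point. Eln holds its level to P20 and is near 4 FPKM at P40, Optc is highest at P20, H19 and Igf2 are highest at E21, and Igfbp3 is highest at P40 after its lowest level at P20.

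The transcripts furthest apart at both times included neural receptors and enzymes. Chrna3, a nicotinic acetylcholine receptor subunit, was at 10.6 and 6.96 FPKM at P20 and at 34.2 and 35.7 FPKM at P40 (chr8:58570223-58583594, rn4). Its fitted difference of 1.90 ± 0.20 (SE) had the lowest unadjusted p of these transcripts, 1.4e-05, and an adjusted p of 0.13 by limma. Gfra2, the receptor for neurturin, was at 2.01, 0.639, 6.64 and 6.12 FPKM. Ptprn2, a protein of dense core vesicles, was at 14.3, 17.6, 45.4 and 38.5 FPKM, beside 2.12 and 2.69 FPKM at E21. S100a6, a calcium-binding protein, was at 2.34, 1.88, 7.77 and 5.65 FPKM.

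Some of these were also day-higher at both ages. St8sia3, a sialyltransferase, was at 13.1 FPKM by day and 0.888 FPKM by night at P20, and at 45.1 and 11.0 FPKM at P40. Hs3st2, a heparan sulfate sulfotransferase, was at 11.1 and 0.717 FPKM at P20 and at 35.4 and 9.10 FPKM at P40. Their P40 mid-night value lay just under the P20 mid-day value, so their groups overlapped although each pair differed. Agtpbp1, a tubulin deglutamylase, was at 40.3, 30.3, 91.9 and 70.2 FPKM. Vps29, a retromer subunit placed among the housekeeping genes, was at 22.3, 24.1, 50.3 and 59.8 FPKM. The 12 highest by this rule also held RGD1563224, Usp18, Ndufv3 and Mx2, and Ndufv3 has more than 1 transcript in the table. RGD1563224 was day-higher at both ages too, at 65.2, 24.9, 163 and 64.4 FPKM.

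On the lower side, Abca17, a lipid transporter gene, was at 6.03, 16.1, 1.65 and 5.97 FPKM. Apold1, an endothelial early response gene, was at 7.61, 12.2, 2.74 and 4.78 FPKM. In Abca17 the night values were the higher ones at both ages. Vsnl1, a neuronal calcium sensor, was at 12.1 and 12.7 FPKM at P20 and 5.25 and 5.46 FPKM at P40. Slc1a5, a glutamine transporter, was at 6.67, 6.33, 1.79 and 2.71 FPKM, and Cd24 at 45.0, 301, 13.9 and 158 FPKM. The Camk2b isoform at 11.3, 11.1, 4.10 and 4.70 FPKM is 1 of 3, and another at 81.8, 45.0, 51.8 and 50.7 FPKM had no common direction.

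**Figure D5:**
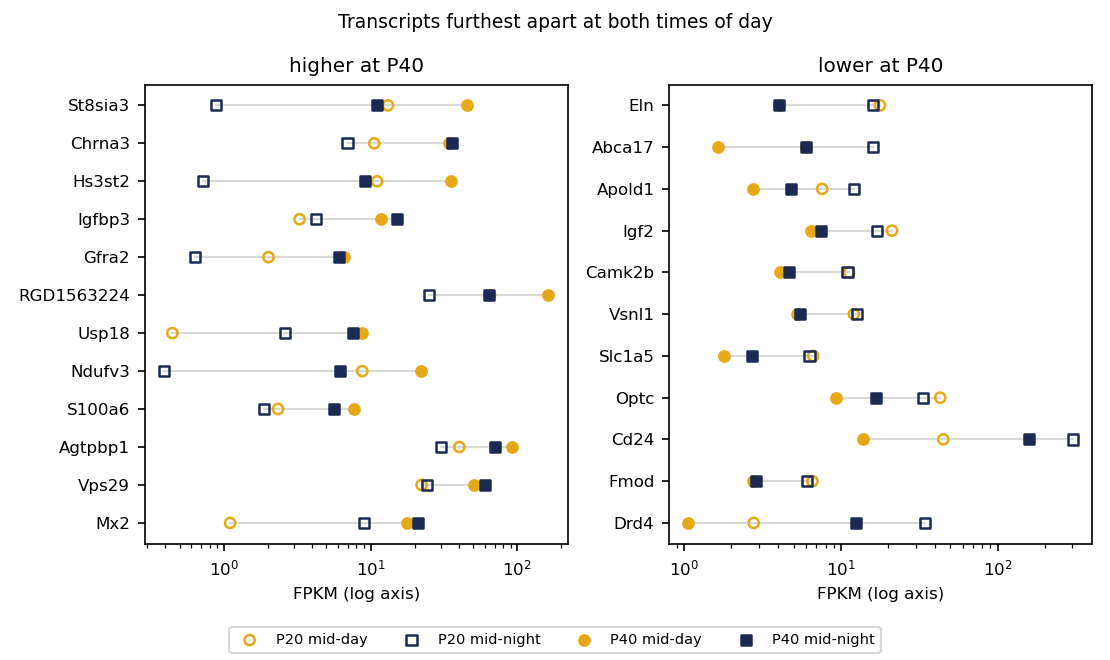
FPKM (x axis, log scale) in the P20 libraries (open symbols) and P40 libraries (filled symbols) at mid-day (circles) and mid-night (squares) for the 12 transcripts highest and 11 of the 12 lowest by the smaller difference of both pairs, with at least 5 FPKM in 2 of the 4 libraries. Each filled symbol lies on the same side of the open symbol of its time of day. The times of day differ as well in several, among them St8sia3, Hs3st2, RGD1563224, Ndufv3, Cd24, Drd4 and Abca17, and Mx2 and Usp18 at P20.

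Secretory granule genes were in part higher at P40, with 5 of 9 tested higher and 3 lower at both times, against 34.2% and 21.4% of all transcripts. Scg2, a granin, was at 21.3, 73.1, 58.7 and 152 FPKM. Cpe, the carboxypeptidase that trims prohormones, was at 5.64, 3.05, 11.3 and 11.2 FPKM, and Pcsk1n at 12.6, 10.8, 20.6 and 18.5 FPKM. Scg5 was lower, at 67.9, 56.4, 37.6 and 44.9 FPKM. Penk, the enkephalin precursor, was at 10.2, 14.6, 23.6 and 30.1 FPKM and had been at 0.686 and 1.61 FPKM at E21. The synaptic vesicle protein gene Syn2 was at 4.93, 6.11, 9.32 and 12.6 FPKM.

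Melatonin synthesis genes had no common direction, with 3 of 11 higher and 4 lower at both times, against 34.2% and 21.4% of all transcripts. Aanat was at 6.21 and 572 FPKM at P20 and at 1.72 and 321 FPKM at P40, lower at both times in single libraries. Its fitted difference of -1.12 turned to 0.88 without the P20 mid-night library and to 1.26 without the P40 mid-day library. Tph1 was at 2350, 1930, 2756 and 2525 FPKM and Asmt at 204, 206, 123 and 208 FPKM. Gch1, which starts synthesis of the cofactor of Tph1, was at 77.4, 32.4, 98.7 and 81.8 FPKM. Mat2a, Ddc and Spr were lower and Mat2b higher at both times by under 0.5, and Asmt, Slc7a5, Pts and Qdpr differed in direction between times.

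Of 21 tested genes whose RNA is known to peak at night in adults, 5 were higher and 7 lower at both times. Over all transcripts these shares were 34.2% and 21.4%. Without the P40 libraries 19 of the 21 passed the filter. The 5 and 7 of 21 that kept the same direction at both times together lie near the 55.55% of all transcripts that did. Nothing is therefore read from the 9 of 21 in which the direction differed between times. The median of these night-higher genes was -0.32 by day and 0.57 by night. The difference between times was not tested, and other lists also had medians on both sides of 0. Rgs2, a regulator of G protein signalling, was at 9.27 FPKM in the P20 mid-night library and 60.9 FPKM in the P40 one, beside 1.15 and 3.05 FPKM at mid-day. Dio2, which activates thyroid hormone, was at 4.87 FPKM in the P20 mid-night library and 31.0 FPKM at P40, with 0.316 and 0.268 FPKM at mid-day. Nr4a3 was at 2.56 and 13.2 FPKM at mid-night and Slc15a1 at 366 and 736 FPKM. Slc15a1, Crem and Nr4a3 have more than 1 transcript each. Against these, Drd4, a dopamine receptor, was lower at both times, at 2.79, 34.4, 1.07 and 12.4 FPKM, and its fitted difference of -1.14 became 0.05 without the P20 mid-night library. Fcer1a was at 7.57, 166, 2.28 and 104 FPKM and Adra1b at 22.6, 43.3, 14.0 and 27.9 FPKM.

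Adrenergic receptor genes differed in direction. Adra1a, the alpha-1A receptor gene, was at 0.246 and 0.324 FPKM at P20 and 2.72 and 1.85 FPKM at P40, while the more abundant Adra1b was lower. Adrb1, the main beta receptor gene of the list, was at 19.4, 29.0, 26.7 and 41.3 FPKM with overlapping groups. Adcy8 was at 0.741, 1.21, 2.70 and 3.70 FPKM, Adcy1 at 10.4, 1.27, 17.8 and 5.28 FPKM, and Prkar2b, a regulatory subunit of protein kinase A, at 23.2, 33.6, 45.6 and 57.5 FPKM. Of the 20 genes tested, 9 were higher and 4 lower at both times, against 34.2% and 21.4% of all transcripts. Without the P40 libraries 19 of the 20 passed the filter.

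Phototransduction genes, which pinealocytes share with retinal photoreceptors, had 11 of 35 higher and 12 lower at both times, against 34.2% and 21.4% of all transcripts. Sag, the rod arrestin, was at 60.5, 69.2, 113 and 155 FPKM, and the channel gene Cnga1 at 4.46, 3.35, 14.0 and 5.93 FPKM. Gnat2, the cone transducin, was lower, at 576, 527, 402 and 356 FPKM. Among thyroid hormone genes, Hr, a receptor corepressor, was at 71.8, 63.4, 33.0 and 41.4 FPKM and Thrb at 0.311, 0.664, 1.02 and 1.97 FPKM. Thrb passed the filter only through its P40 values. The 29 cell cycle genes tested had a median of 0.03 from the mid-day pair and -0.02 from the mid-night pair. At both times 9 were higher and 7 lower, against 34.2% and 21.4% of all transcripts, and 0 by 1.5-fold.

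Red cell transcripts were high in the P20 mid-day library. Hbb, the beta globin gene, was at 2803 and 1317 FPKM at P20 and at 795 and 1134 FPKM at P40, and Slc4a1, the red cell anion exchanger, at 6.11, 3.25, 0.840 and 1.86 FPKM. The 6 erythroid genes tested had a median of -1.88 at mid-day and -0.18 at mid-night, and 9 found members summed to 4961 and 2059 FPKM at P20 and 1375 and 1737 FPKM at P40. The same library was the lowest for most interferon response members, and whether blood content bears on them was not tested. Choroid plexus markers summed to 726 and 940 FPKM at P20 and 767 and 1071 FPKM at P40, and to 18040 FPKM in the P5 mid-night library, which enters the filter, the limma fit and the comparisons of earlier ages but neither pair.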

How the data were processed

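Total RNA of pooled rat pineal glands was sequenced, 1 library for each of 4 ages by day and by night, from poly(A)-enriched RNA read as paired ends, per the labels. The authors deposited the values as FPKM per RefSeq transcript. TopHat 1.3.1, Cufflinks 1.2.0 and build rn4 are named in the submitters' processing notes, and scaling beyond FPKM is not given in the sources used here. Counts were not used here, so counting error is unknown. Relative depth was read from the smallest steps between FPKM values of short olfactory receptor transcripts.

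From these values log2(FPKM + 1) was computed. The linear model of limma 3.58.1 (R 4.3.3) fitted age and time of day over 8 libraries (3 residual degrees of freedom). Its moderated variances follow the mean level, and two-sided p were adjusted by Benjamini-Hochberg. The code was also run on simulated data with a common spread for all transcripts and a common night effect for all ages. Real data are less simple, so no error rate is read from that run. Each pair (P40 minus P20 at 1 time) has no replicate.

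Named were the 12 highest and 12 lowest transcripts by the smaller pair difference (at least 5 FPKM in 2 libraries) and the 5 lowest p each way. Further names are up to 4 members per list, members of the melatonin and MHC class II lists, and the 8 with the largest gap between both pairs. Of these, 1 of the 12 lowest is not reported here. Other genes in the text were chosen after their values were seen. Members, rules and the 41 lists were chosen with earlier results of these data known, and 2 lists were added after values were seen. In lists, each gene stands by its transcript of highest mean FPKM. Alternatives covered pseudocounts, filters, scaling, other model terms and leaving out each P20 and P40 library. Sequences come from RefSeq (GRCr8).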

Additional observations from a re-analysis of the deposited data

Results flagged for a closer look

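Opposite directions at mid-day and mid-night marked 7 of the 8 transcripts with the largest gap between both pairs. Each rests on 4 single libraries, and the difference between times was not tested. Psap, which encodes the lysosomal protein prosaposin, has 4 transcripts in the table. The marked one was at 41.0 and 1.07 FPKM in the P20 libraries (mid-day first) and 0 and 9.55 FPKM in those of P40, a gap of 7.74 on the log2 scale (night pair minus day pair). Another Psap transcript went from 3.99 and 30.1 FPKM to 49.0 and 39.4 FPKM, so the split between isoforms is uncertain.

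Gngt1, the gamma subunit of rod transducin, was at 2553, 514, 409 and 1056 FPKM in the same order, a gap of 3.68. Car8, a carbonic anhydrase-related protein, was at 19.6, 5.89, 3.42 and 13.5 FPKM, a gap of 3.30. Zrsr1 was at 6.55, 34.9, 5.30 and 227 FPKM, a gap of 2.93. LOC689064, which stands in the erythroid list, was at 102, 23.8, 17.8 and 26.1 FPKM, a gap of 2.58.

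In the opposite sense, Eef1a1, a translation elongation factor with near-identical copies, was at 10.0, 16.0, 83.5 and 13.3 FPKM, a gap of -3.19. Usmg5, a small subunit of mitochondrial ATP synthase, was at 3.67, 5.89, 13.9 and 2.67 FPKM, a gap of -2.58. In each of these 7 transcripts 1 or 2 libraries stand far from the rest.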

How the results depend on the processing

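Counts of transcripts 2-fold apart depended most on the pseudocount. With 0.1, 1 transcript passed limma's adjusted p of 0.05; 99 and 40 were at least 2-fold higher and lower at P40 at both times, and 575 and 634 at least 2-fold apart at mid-day and mid-night. With 5 the counts were 8 and 1, and 76 and 65, and with a filter at 5 FPKM 19 were higher. Leaving out any 1 of the 4 libraries gave 0 adjusted calls (range 0 to 0), and pair counts could not be formed. Of limma's unadjusted calls 489 were higher and 180 lower, against 278 and 314 without the P20 mid-night library. These 669 calls became 464 to 809 without 1 library and 925 with no filter. They became 978 with separate night effects for E21 with P5 and for P20 with P40.

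For 73 named transcripts, 796 of 803 fitted differences under alternatives kept their direction and side of the threshold. Most of these transcripts were named for large differences in the same direction at both times, and 0 passed the threshold in the main fit. Fits of only the 4 libraries, with separate night effects or without time of day return the same difference by design. The count is therefore not read as a measure of robustness. RT1-DMa was at -0.00268 after median centring. Without 1 library at a time the lowest and highest fitted differences were -2.32 and 0.053 for Drd4, -3.49 and 1.26 for Aanat, -2.80 and 0.74 for Fcer1a, and -0.015 and 0.10 for RT1-DMa, and the cause was not tested. The interferon response median lay between 0.52 (pseudocount 5) and 1.40 (pseudocount 0.1), with all tested members higher at both times in each scaling and filter, and was 0.67 from the mid-night pair alone, chosen after seeing the data. Medians of the circadian clock, thyroid hormone, astrocyte, phototransduction, smooth muscle, chaperone, translation and habenula lists were near 0 and changed sign under 1 or more settings.

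No paired analysis was possible because no label ties 1 pool of animals to another. Paired by time of day alone, in a fit of only the 4 libraries (1 residual degree of freedom), limma gave 0 adjusted and 963 unadjusted calls. Depth limits low values most at P20 mid-day, where 1 fragment of a 1 kb transcript is worth 0.0679 FPKM.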

Other observations

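Some genes outside the described groups had P20 and P40 values that did not overlap. Over all transcripts, both P40 values lay above both P20 values in 18.7% and below in 11.0%. Such separation is therefore common, and nothing is read from it in single genes. Aqp4, the water channel of astrocyte endfeet, was at 3.47 and 3.17 FPKM at P20 and 7.70 and 5.35 FPKM at P40, while Gja1, another astrocyte gene, was at 80.6, 60.3, 58.6 and 59.6 FPKM. Of 10 tested astrocyte markers, 1 (Aqp4) was higher and 2 were lower at both times, against 34.2% and 21.4% of all transcripts. Myh11, the smooth muscle myosin, was at 7, 5.74, 15.1 and 15.0 FPKM, but Mylk, which phosphorylates myosin light chain, overlapped at 21.7, 47.2, 26.3 and 51.2 FPKM. Of 8 tested smooth muscle and pericyte markers, 4 were higher and 2 lower at both times, and only Myh11 was higher by 1.5-fold. The calcium channel gene Cacna1e was at 0.655, 0.387, 2.39 and 1.26 FPKM. Tspo, a mitochondrial cholesterol-binding protein also made by activated glia, was at 10.2, 5.67, 14.7 and 14.1 FPKM. Syp, the synaptic vesicle protein synaptophysin, was at 508, 446, 714 and 675 FPKM and Snap25 at 613, 763, 559 and 552 FPKM, in opposite directions.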
